A study of Mus musculus with 10 samples.

Results

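Meis1 and 7 of its relatives in the TALE class of homeodomain transcription factors (Meis2, Meis3, Pbx2, Pbx3, Pbx4, Pknox1 and Pknox2) were followed in murine Mll-AF9 leukaemia cells in which Meis1 had been targeted by RNA interference. Every probe set whose only gene symbol in the platform annotation was one of these 8 names was taken, which gave 20 of 45037 probe sets, 3 for Meis1 and 17 for its relatives, and 8 of the 18193 genes that had a probe set of their own. The tested arrays (n = 5) held RNA of cells, line number 4166, transduced with a lentivirus that carried a short hairpin RNA (shRNA) against Meis1. The arrays they were set against (n = 5) held cells transduced with the empty lentiviral vector, which carries no hairpin. All cells carried the Mll-AF9 fusion, grew in IMDM medium with 15% serum and interleukin 3 at 2 ng/ml, and were profiled 48 h after transduction under puromycin selection. The labels pair each shRNA sample with the control sample of the same number. They name a single Meis1 construct and do not say whether the line was a clone or whether the samples were independent cultures, so every p-value refers to the scatter of these arrays, part of which may be technical.

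TALE proteins share a homeodomain with a short insertion of amino acids in the loop between its first helices. They join one another and HOX proteins on DNA. Meis and Pknox proteins bind Pbx proteins through a conserved N-terminal region, so members of both families compete for the same Pbx partners. In myeloid leukaemia with MLL fusions Meis1 is known to act together with Hoxa9 and with Pbx proteins, Pbx3 among them, while Pknox1 (also called Prep1) is known to counter Meis1 in other mouse cells.

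The promoter of Meis1 is shown because Meis1 is the gene that the hairpin targets and the member that changed most, although a hairpin acts on the transcript and not on this sequence. RefSeq places this Meis1 start on the minus strand of mouse chromosome 11 (GRCm38.p6, chr11:19018920-19019219), and the run holds 250 bases before the start and 50 after it, 5′ to 3′, with a CCAAT box in capitals.
Meis1: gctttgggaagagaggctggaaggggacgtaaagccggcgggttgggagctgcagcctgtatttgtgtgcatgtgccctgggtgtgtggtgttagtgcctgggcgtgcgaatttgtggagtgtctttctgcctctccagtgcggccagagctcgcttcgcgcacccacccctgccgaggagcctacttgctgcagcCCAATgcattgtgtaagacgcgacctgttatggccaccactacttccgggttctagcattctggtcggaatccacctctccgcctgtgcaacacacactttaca
The CCAAT box begins 54 bases before the start. Both strands of the promoters of Meis1, Meis2, Meis3, Pbx2 and Pbx4, the members with an entry in the table, were searched for 5 motifs. The core site of Meis and Pknox proteins (TGACAG), the joined Pbx and Meis site (TGATTGAC) and the joined Pbx and Hoxa9 site (TGATTTAT) were in 0 of the 5. These motifs were present in 19.1%, 0.774% and 0.974% of 32544 mouse promoters of the same length. CCAAT was in those of Meis1, Meis2 and Pbx4, against 37.4% of all promoters. GGGCGG, the GC box, was in that of Pbx2 alone of the 5, against 35.9% of all. None of these motifs overlapped another in the promoters of the members.

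Values are intensities on a linear scale after RMA normalization by the authors, and changes are log2 differences, shRNA minus control. Affymetrix's unspiked bacterial Trpn probe sets, a guide to background, read 3.28 to 4.92 across the arrays. Each marker gene below was read from its probe set of the highest mean alone, although Kit had 2 probe sets. Against the label of a myeloid leukaemia line, 8 of 10 markers of myeloid progenitors and granulocyte-monocyte cells had a mean log2 level of at least 5. None of 17 measured markers of erythroid, megakaryocytic, lymphoid, stromal and endothelial cells reached that level, and their summed intensities were 29.4 to 49.6 per list in the shRNA arrays and 30.8 to 64.3 in the control arrays. Of the 10 myeloid markers 1 fell, 0 rose and 9 did not pass (limma), with 5 at an unadjusted p under 0.05 that did not share a direction. Of all probe sets 2.48% passed and 14.8% had an unadjusted p under 0.05. Kit, the receptor for stem cell factor, fell (-0.78, adjusted p = 0.00237), while the myeloid factors Spi1 (0.33, adjusted p = 0.175) and Cebpa (0.26, adjusted p = 0.302) and the integrin Itgam (0.45, adjusted p = 0.239) were each higher in 4 of 5 pairs without passing. The granule protease Elane was at -0.40 (adjusted p = 0.0521 by limma), lower in 5 of 5 pairs. So were Mpo (-0.15), Prtn3 (-0.13) and 8.56% of all probe sets. Among the other markers the dim endothelial and myeloid adhesion molecule Pecam1 fell (-0.71, adjusted p = 0.0454 by limma). The 3′/5′ ratio, the log2 ratio of signal at the 3′ end to that at the 5′ end of the Gapdh and actin control transcripts and a measure of RNA integrity, was 0.334 to 0.389 in the shRNA arrays. It was 0.201 to 0.284 in control arrays 1 to 4, and 0.373 in control 5.

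Of the 20 probe sets, 2 fell and 0 rose with the Meis1 shRNA at an adjusted p under 0.05 (limma with the pair as a block, Benjamini-Hochberg over all probe sets). They were 1 of Meis1 and 1 of Pknox1. Over the whole array 2.48% of all probe sets passed, with 1.96% of all lower and 0.522% of all higher. Among the 17 probe sets of the relatives 1 passed, and 5 had an unadjusted p under 0.05, against 14.8% of all probe sets. Most of those 5 belonged to a single gene, Pknox1 (1450172_at, 1421233_at and 1437470_at). The others were Pbx2 1418894_s_at, which was lower, and the dim Pbx4 1454912_at, which was higher. The median log2 change of the relatives was -0.06, beside 0.01 over all probe sets, and 9 of the 17 changes were below 0, beside 47.8% of all. Only 5 of the 20 had a mean log2 level of at least 5, namely those of Meis1 (1450992_a_at), Pbx2 (1418893_at), Pbx3 (1447640_s_at) and Pknox1 (1437470_at and 1450172_at), while 12 lay below 4.

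**Figure D1:**
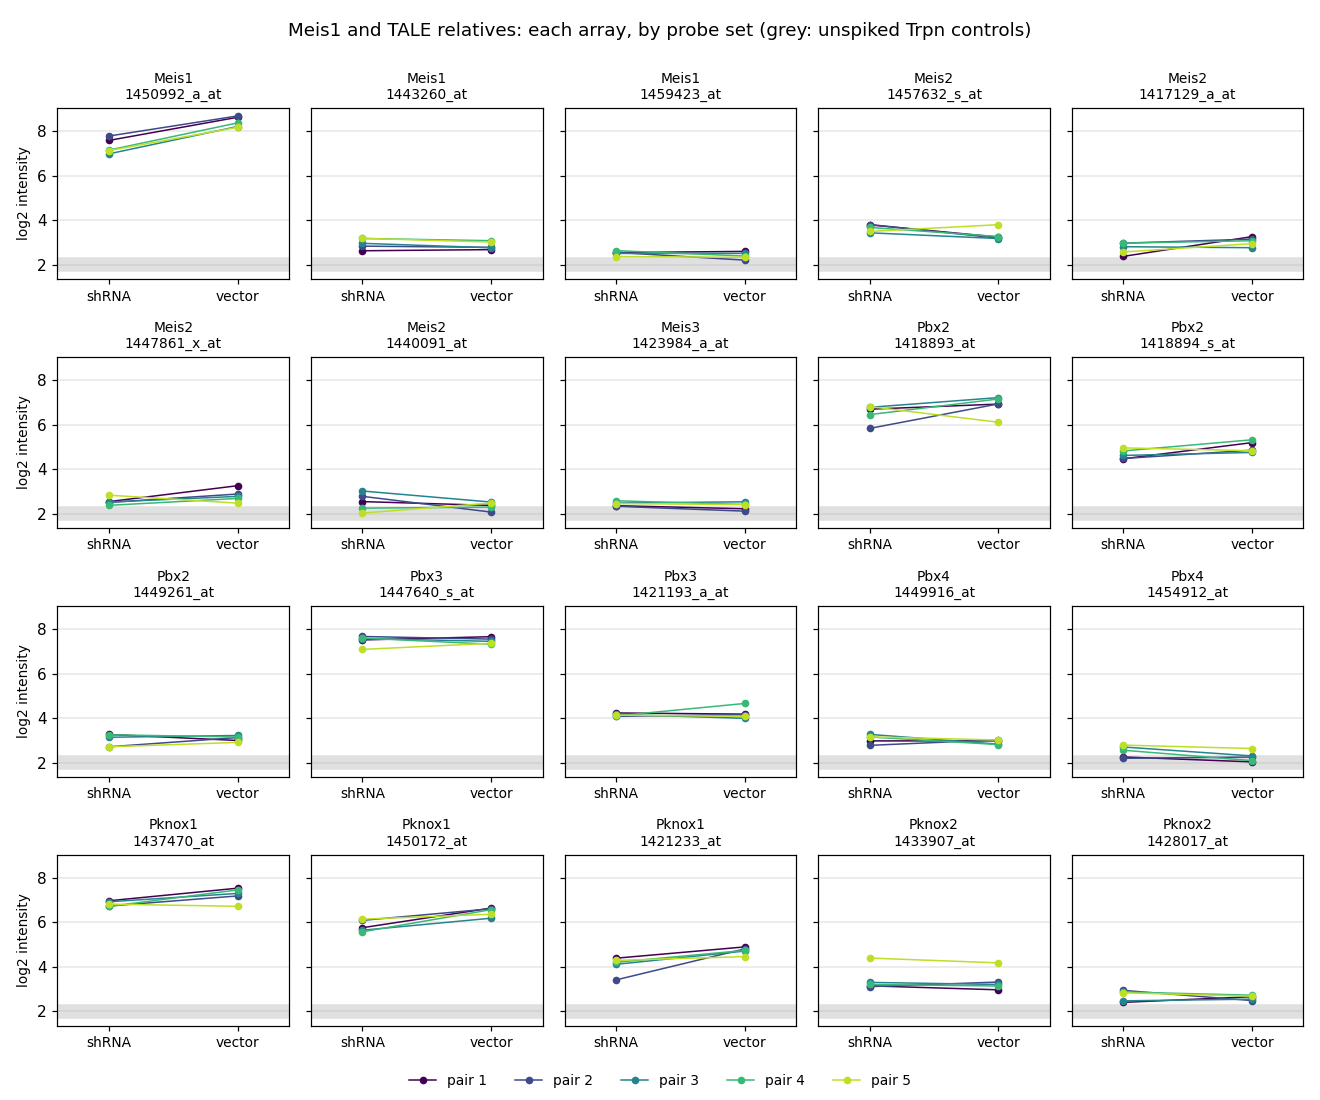
Log2 intensity of each array for the 20 probe sets, with shRNA arrays left and empty vector arrays right in each panel, lines joining the arrays of a pair, and a grey band for the range of the Trpn controls. Every line of Meis1 1450992_a_at and of Pknox1 1450172_at and 1421233_at slopes to the lower shRNA value, while pair 5 stands high in both groups for Pknox2 1433907_at.

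Meis1 itself was roughly halved. Probe set 1450992_a_at of Meis1 (Entrez gene 17268) read 192.6, 220.7, 126.7, 142.4 and 140.2 in shRNA arrays 1 to 5, against 395.9, 413.1, 297.1, 332.7 and 290.3 in control arrays 1 to 5. The groups did not overlap, which held, in the same direction, for 2.75% of all probe sets and 8.06% of those with a mean log2 level of at least 5. Arrays 1 and 2 read highest in both groups. The remaining Meis1 transcript was 47.0% of control by the fitted change, with a 95% confidence interval of 40.8% to 54.1% (log2 change -1.09, SE 0.09, adjusted p = 0.000767 by limma). The pair differences lay between -1.23 in pair 3 and -0.90 in pair 2, so all 5 pairs were lower, as they were for 8.56% of all probe sets. Without moderation of the variances the adjusted p was 0.0542, and in a fit that also held the 3′/5′ ratio the change was -0.98 (adjusted p = 0.246).

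The other Meis1 probe sets carried almost no signal and did not show the reduction. Probe set 1443260_at read 6.19 to 9.11 in the shRNA arrays and 6.41 to 8.47 in the control arrays, with a log2 change of 0.09 (95% interval -0.10 to 0.29, adjusted p = 0.694 by limma). Probe set 1459423_at read 5.17 to 6.21 with the shRNA and 4.62 to 6.06 with the vector, with a change of 0.11 (95% interval -0.10 to 0.33, adjusted p = 0.664). Both lay little above the Trpn controls, where a fall could hardly show, and their intervals do not include the change of 1450992_a_at.

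Meis2 and Meis3, the nearest relatives of Meis1, were dim in these cells. The 4 Meis2 probe sets spanned intensities of 4.07 to 14.0 across all arrays. Meis2 1457632_s_at read 13.9, 14.0, 10.8, 12.8 and 11.3 in shRNA arrays 1 to 5, against 9.47, 9.16, 9.05, 9.63 and 13.9 in control arrays 1 to 5. It was higher with the shRNA in pairs 1 to 4 and lower in pair 5, where control 5 stood above the other controls. The change was 0.31 (SE 0.14, 95% interval -0.00273 to 0.613, adjusted p = 0.343 by limma). Probe sets with the suffix _s_at, as here and for 1 each of Pbx2 and Pbx3, or _x_at, as for Meis2 1447861_x_at, can also match transcripts of other genes. Meis2 1417129_a_at (-0.30, adjusted p = 0.344) and 1447861_x_at (-0.26, adjusted p = 0.454) pointed the other way, and 1440091_at was at 0.18 (adjusted p = 0.692), so the probe sets of Meis2 did not share a direction. The single Meis3 probe set, 1423984_a_at, read 5.03 to 5.97 with the shRNA and 4.32 to 5.78 with the vector. Its change was 0.10 (95% interval -0.09 to 0.30, adjusted p = 0.667 by limma).

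Pknox1 fell in 1 of its 3 probe sets. Probe set 1450172_at of Pknox1 (Entrez gene 18771) read 54.3, 68.2, 50.2, 47.8 and 70.9 in shRNA arrays 1 to 5, against 100, 97.9, 72.9, 95.2 and 82.5 in control arrays 1 to 5. Every shRNA array was below every control array, which was so for 8.06% of probe sets with a mean log2 level of at least 5. The level was 64.5% of control (95% interval 53.2% to 78.3%), a log2 change of -0.63 (SE 0.12, adjusted p = 0.0341 by limma). The pair differences were -0.88, -0.52, -0.54, -0.996 and -0.22 for pairs 1 to 5.

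The dimmer Pknox1 1421233_at had nearly the same change without passing. It read 21.0, 10.7, 17.3, 18.5 and 19.6 in shRNA arrays 1 to 5, against 29.8, 28.0, 26.2, 26.7 and 22.0 in control arrays 1 to 5. These groups did not overlap either, which held in the same direction for 2.75% of all probe sets. The log2 change was -0.64 (SE 0.16, 95% interval -0.997 to -0.28, adjusted p = 0.0794 by limma). The brightest Pknox1 probe set, 1437470_at, read 125.5, 106.7, 121.6, 105.3 and 113.0 with the shRNA, against 185.9, 146.0, 157.9, 176.2 and 105.7 with the vector. It was lower in pairs 1 to 4 and higher by 0.10 in pair 5, where control 5 lay among the shRNA arrays (log2 change -0.41, SE 0.12, 95% interval -0.69 to -0.13, adjusted p = 0.150). Across the 10 arrays the log2 levels of 1450172_at and 1437470_at correlated at r = 0.65, which is a description that includes the group difference. Other members gave higher and lower values with 1450172_at and 1437470_at. These were 0.89 and 0.70 for Meis1 1450992_a_at, 0.29 and 0.78 for Pbx2 1418893_at, and -0.17 and 0.08 for Pbx3 1447640_s_at.

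The Pknox1 call rested on the choice of arrays and processing. Probe set 1450172_at missed the threshold when pair 1, 2, 3 or 4 was left out (adjusted p = 0.132, 0.0973, 0.0972 and 0.141 by limma). Its log2 change was then -0.57, -0.66, -0.65 and -0.54, beside -0.63 with all pairs. In those fits 493, 431, 549 and 359 of all probe sets passed, against 1116 with all pairs. It also missed after quantile normalization (-0.51, adjusted p = 0.0598) and without moderation (adjusted p = 0.229), where 985 and 33 of all passed. The same probe set passed without the block (adjusted p = 0.0330 by limma), with the block as a random effect (0.0228) and with median centring (0.0278). It passed too with trend and robust eBayes (0.00962), array weights (0.0173) and a mean log2 level of at least 5 (0.0150). Without pair 5 all 3 Pknox1 probe sets passed, 1450172_at at -0.73 (adjusted p = 0.0151), 1437470_at at -0.53 (adjusted p = 0.0304) and 1421233_at at -0.76 (adjusted p = 0.0387), against 3.72% of all probe sets. Control 5 is also the control array whose 3′/5′ ratio lay within the range of the shRNA arrays. When the fit also held that ratio beside the block, 1450172_at was at -0.23 (adjusted p = 0.969), 1437470_at at -0.02 and 1421233_at at -0.64. The part of RNA integrity in the Pknox1 values was not tested beyond this fit, in which limma called 0 of all probe sets (2504 at an unadjusted p under 0.05). In bulk RNA, fewer cells with a transcript and less transcript per cell cannot be told apart.

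**Figure D2:**
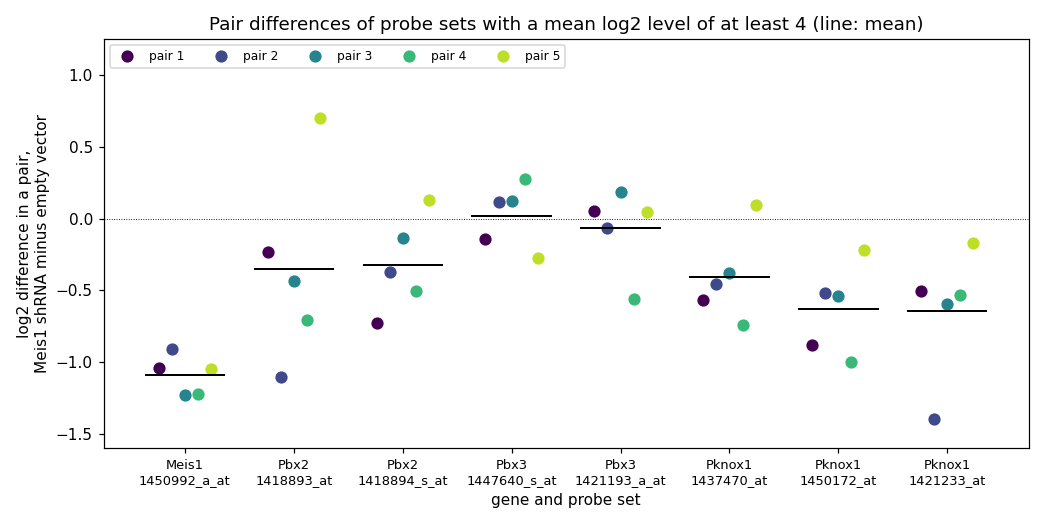
Log2 difference within each pair, shRNA minus empty vector, for the 8 probe sets with a mean log2 level of at least 4, with a point per pair and a line at the mean. Meis1 lies between -1.23 and -0.90 in all pairs, while pair 5 is the highest point of the Pbx2 and Pknox1 probe sets shown and the lowest of Pbx3 1447640_s_at.

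Pknox2, the closest relative of Pknox1, was dim. Probe set 1433907_at read 8.87, 8.64, 9.87, 9.25 and 21.1 in shRNA arrays 1 to 5, against 7.83, 9.98, 9.25, 8.82 and 18.1 in control arrays 1 to 5. Both arrays of pair 5 stood apart from the rest, and the difference within that pair was 0.22. The change over all pairs was 0.07 (95% interval -0.14 to 0.28, adjusted p = 0.809 by limma). The other Pknox2 probe set, 1428017_at, did not show the high values, with 7.14 in shRNA array 5 and 6.41 in control 5.

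Pbx3, a partner that Meis1 binds in MLL-rearranged leukaemia, had nearly equal levels in both groups. Probe set 1447640_s_at of Pbx3 (Entrez gene 18516) read 182.3, 203.0, 190.2, 193.0 and 135.7 in shRNA arrays 1 to 5, against 201.7, 187.1, 174.6, 159.6 and 164.2 in control arrays 1 to 5. The mean was 181 ± 26.3 with the shRNA and 177 ± 17.2 with the vector (SD, n = 5 each). The groups overlapped, with 3 pairs higher and 2 lower. Its change of 0.02 (SE 0.10) had an adjusted p of 0.966 by limma, and the 95% interval allows a level between 0.860 and 1.19 times that of control. The sign of so small a value turned with median centring (-0.02). Pbx3 1421193_a_at read 16.9 to 18.7 with the shRNA and 15.8 to 25.2 with the vector, where control 4 was the highest (change -0.07, adjusted p = 0.858, or 0.04 after quantile normalization).

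Pbx2, a Pbx protein of broad expression, was lower in 4 of 5 pairs in both of its brighter probe sets, and neither passed. Probe set 1418893_at of Pbx2 (Entrez gene 18515) read 103.6, 56.9, 109.8, 87.5 and 112.3 in shRNA arrays 1 to 5, against 121.5, 122.2, 148.7, 142.5 and 69.0 in control arrays 1 to 5. The groups overlapped because of pair 5, with the lowest control value and the highest shRNA value. It changed by -0.35 on the log2 scale (SE 0.22, 95% interval -0.85 to 0.14, adjusted p = 0.523 by limma), and the pair differences ran from -1.10 in pair 2 to 0.70 in pair 5. Without pair 5 the change was -0.62 (adjusted p = 0.0565). Without pair 2 it was -0.17, and in a fit that also held the 3′/5′ ratio 0.12 (adjusted p = 0.998).

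Pbx2 1418894_s_at read 22.1, 22.3, 24.5, 28.2 and 31.0 with the shRNA, against 36.5, 28.9, 26.9, 39.9 and 28.4 with the vector (change -0.32, SE 0.13, 95% interval -0.61 to -0.03, adjusted p = 0.276). Pair 5 was again the pair that was higher with the shRNA, by 0.13. The third Pbx2 probe set, 1449261_at, was dim, at 6.52 to 9.59 with the shRNA and 7.48 to 9.28 with the vector (change -0.06, adjusted p = 0.864).

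Pbx4, known mainly from the testis, was dim in both of its probe sets. Probe set 1449916_at read 6.83 to 9.61 with the shRNA and 6.996 to 8.12 with the vector (change 0.13, 95% interval -0.13 to 0.39, adjusted p = 0.674 by limma). Probe set 1454912_at read 4.56 to 6.88 with the shRNA and 4.08 to 6.18 with the vector, and was higher with the shRNA in 4 of 5 pairs (change 0.24, adjusted p = 0.319).

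**Figure D3:**
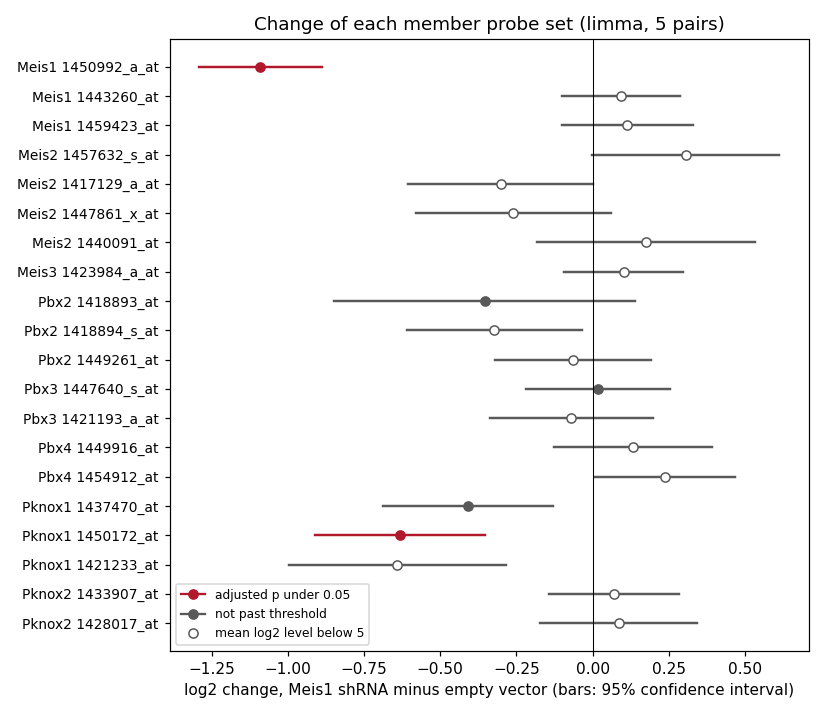
Log2 change of each member probe set, shRNA minus empty vector, with its 95% confidence interval from the paired limma fit. Points in red passed an adjusted p of 0.05, namely Meis1 1450992_a_at (-1.09) and Pknox1 1450172_at (-0.63), and open points mark a mean log2 level below 5.

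The change of Meis1 was set against that of each relative within the pairs, with each relative represented by its probe set of the highest mean and intervals taken from the spread over the 5 pairs. The difference from Pbx3 was below 0 in 5 of 5 pairs (mean difference -1.11, SD 0.31, 95% interval -1.49 to -0.73). Against Pknox1 the mean difference was -0.68 (SD 0.31, 95% interval -1.06 to -0.30, 5 of 5 pairs), and against Pbx2 it was -0.74 (SD 0.70, 95% interval -1.605 to 0.13, 4 of 5 pairs). With these probe sets the difference from Pbx2 in pair 2 was 0.20, the only pair and relative where it was above 0. The Pknox1 probe set used here, 1437470_at, changed least of the Pknox1 probe sets (-0.41, beside -0.63 for 1450172_at and -0.64 for 1421233_at). In pair 2 the change of Pknox1 1421233_at was larger than that of Meis1 (-1.39, beside -0.90). The mean differences from Meis2, Meis3, Pbx4 and Pknox2 lay between -1.39 and -1.16, each below 0 in 5 of 5 pairs, but these relatives were near background. By an exact permutation of the signs of the 5 pair differences, two-sided, p was 0.062, the smallest that 5 pairs allow, for each relative other than Pbx2 (0.125). Adjusted over the 7 relatives these were 0.0729 and 0.125, so no difference could pass 0.05 by this test. Against the median of all 17 relative probe sets the mean difference was -1.01 (SD 0.21, 5 of 5 pairs), but 10 of the 17 had a mean log2 level below 4, so that median rests largely on probe sets where a fall could hardly show.

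**Figure D4:**
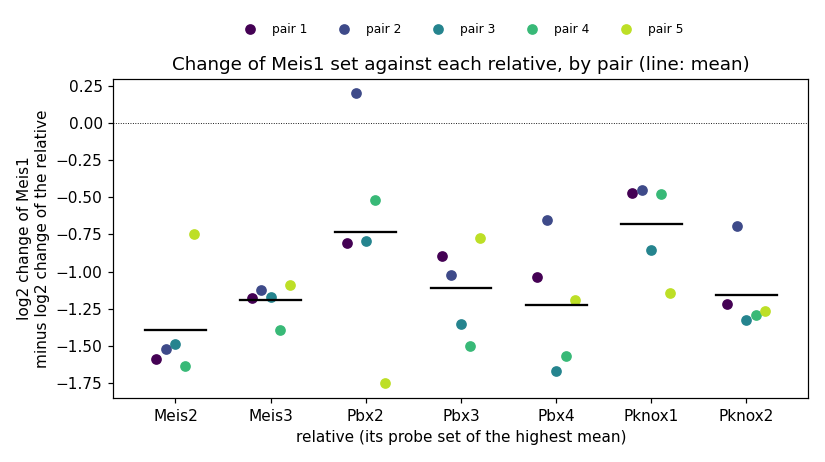
Log2 change of Meis1 1450992_a_at minus the log2 change of each relative, read from its probe set of the highest mean, with a point per pair and a line at the mean. Of the 35 points only that of Pbx2 in pair 2 (0.20) lies above 0.

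The other TALE genes, Tgif1, Tgif2, the Irx genes and Mkx, gave 0 calls among 9 measured genes, each read from its probe set of the highest mean (limma, with 2 at an unadjusted p under 0.05, beside 14.8% of all probe sets). Their median change was -0.04. Those 2 were Tgif2, a repressor of TGF-beta target genes (-0.32, adjusted p = 0.281), and the dim Irx1 (-0.27, adjusted p = 0.283). Of the 9, 8 had a mean log2 level below 5. The exception was Tgif1, named here after its values were seen, at a log2 level of 7.01 with the shRNA and 6.94 with the vector (change 0.07, adjusted p = 0.871).

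A list of 13 partners and regulators of Meis1 held Hoxa7, Hoxa9, Hoxa10, Hoxa11, Kmt2a, Men1, Psip1, Mllt3, Dot1l, Elf1, Creb1, Gfi1 and Trib2. Of these 0 passed, 4 had an unadjusted p under 0.05, beside 14.8% of all probe sets, and the median change was -0.09 (limma). Each gene was read from its probe set of the highest mean alone, although Creb1 had 6 probe sets and Dot1l had 2. The smallest p-values belonged to Dot1l, the H3K79 methyltransferase recruited by MLL fusions (-0.55, SE 0.14, adjusted p = 0.0866, lower in 5 of 5 pairs), and Creb1, a factor activated by cyclic AMP signalling (-0.45, SE 0.12, adjusted p = 0.106, lower in 5 of 5 pairs). Hoxa7, a HOX partner named after its values were seen, had nearly the same p as Creb1 and pointed the other way (0.53, SE 0.14, adjusted p = 0.106, higher in 4 of 5 pairs). These 3 values miss the threshold, and the intervals, -0.86 to -0.23 for Dot1l, -0.72 to -0.17 for Creb1 and 0.21 to 0.85 for Hoxa7, are not adjusted for the number of genes tested.

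Across the 10 arrays, the probe sets whose log2 levels were most like those of Meis1 1450992_a_at were ranked by Pearson correlation among 10282 with a single symbol and a mean log2 level of at least 5. The arrays share pairs and fall into 2 groups that differ in Meis1, so these values combine the difference between groups with the variation within them. The 5 highest were Cnih4, a cargo receptor of the endoplasmic reticulum (r = 0.980), Rfc2, a clamp loader subunit of DNA replication (0.979), C1qbp, a mitochondrial matrix protein (0.978), Haus3, a subunit of the spindle complex augmin (0.977), and Fth1, the ferritin heavy chain (0.976). The 5 lowest were the secretory GTPase Rab2a (-0.978), Zfp36l1, which promotes decay of messenger RNA (-0.968), the ubiquitin-conjugating enzyme Ube2q1 (-0.968), the ribosomal protein Rpl37a (-0.966) and the clathrin light chain Clta (-0.962). Of these 10, the 5 highest, Rab2a and Zfp36l1 passed the threshold between groups, with log2 changes from -0.77 (Fth1) to 0.88 (Zfp36l1), while Ube2q1, Rpl37a and Clta did not (adjusted p = 0.113, 0.731 and 0.218). Of all probe sets 2.48% passed. The groups did not overlap in Meis1, so a choice by correlation with Meis1 favours probe sets that differ between groups. These calls are therefore not a separate result.

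Once each group's mean was subtracted, so that only the variation within groups remained, the 5 highest were others. They were Phgdh, an enzyme of serine synthesis (r = 0.983), Arpp19, an inhibitor of the phosphatase PP2A (0.983), Phka2, a phosphorylase kinase subunit (0.981), Ndufb1, a subunit of respiratory complex I (0.980), and Tmsb10, an actin-binding thymosin (0.979). None of these 5 passed the threshold between groups, with log2 changes from -0.35 (Phgdh) to 0.35 (Tmsb10). Meis1 1450992_a_at read highest in arrays 1 and 2 of both groups. Within groups, likeness to Meis1 therefore cannot be told apart from a difference between replicates that both groups share. Among the relatives, Pknox1 1450172_at had a correlation of 0.89 with Meis1 on log2 levels, with 2.70% of the ranked probe sets higher, and 0.56 within groups. Pknox1 1437470_at had 0.70 and 0.24, Pbx2 1418893_at 0.27 and -0.28, and Pbx3 1447640_s_at 0.16 and 0.49, each given for log2 levels first and within groups second. On log2 levels 14.8%, 43.9% and 51.3% of the ranked probe sets lay above these, in that order. No such share was taken for the values within groups.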

How the data were processed

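RNA of 10 samples was hybridised to Affymetrix mouse arrays. The deposited values are intensities that the authors made with RMA, per the submitters' processing notes; its version was not given in the sources used here. They lie on a linear scale from 1.30 to 32400, a reading that rests on the values, and were log2-transformed with no pseudocount. All value columns belonged to these samples. Of 45101 probe sets 64 Affymetrix controls were left out; 34945 of the rest had 1 gene symbol, 932 several and 9160 none. All 20 member probe sets matched RefSeq (GRCm38.p6) by Entrez identifier. Groups were compared with limma 3.58.1 (R 4.3.3) with the sample number as a block, p-values adjusted by Benjamini-Hochberg, and the fit was tested on simulated data. The pairing by sample number is stated in the labels' treatment protocol. Deviations of same-numbered samples from their group means correlated at 0.310 to 0.600 over 11215 brighter probe sets. Samples of different numbers were not compared in this way, so these values do not test the pairing. With the block as a random effect, the consensus correlation within blocks was 0.080. The number of arrays limits the precision.

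The members, the gene lists and the tests were chosen with earlier results of these data known. Named were all member probe sets, the 5 probe sets most and least like Meis1 on log2 levels, the 5 most like it within groups, and, for each of 2 gene lists, the genes past the threshold and up to 2 more with the smallest p. Hoxa7, Tgif1 and the markers Kit, Elane, Mpo, Prtn3, Spi1, Cebpa, Itgam and Pecam1 were named outside this rule, after their values were seen. Alternatives covered the block, normalization, moderation, array weights, a level filter, the 3′/5′ ratio and each pair left out.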

Additional observations from a re-analysis of the deposited data

Results flagged for a closer look

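Each member probe set was examined in both groups of 5 arrays for an array far from the other 4 by Dixon's test on log2 values, 40 groups in all, of which chance would flag about 1 in 20. The test marked 7 values, and 5 of them lay in arrays of pair 5. In Pknox2 1433907_at the highest shRNA value was 21.1 in array 5, with 9.87 next, and the highest control value was 18.1, also in array 5, with 9.98 next. In Pbx2 1418893_at control 5 was the lowest at 69.0, with 121.5 next. In Meis2 1457632_s_at control 5 was the highest at 13.9, with 9.63 next. In Pbx3 1447640_s_at shRNA array 5 was the lowest at 135.7, with 182.3 next. Outside pair 5, control 4 was the highest in Pbx3 1421193_a_at at 25.2, with 18.1 next. In Pknox1 1421233_at shRNA array 2 was the lowest at 10.7, with 17.3 next. None of the 7 values was in a Meis1 probe set.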

How the results depend on the processing

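The log2 change of Meis1 1450992_a_at was -1.14 to -1.05 with each pair left out in turn (adjusted p 0.00187 to 0.00681). It passed under every alternative but 2: without moderation of the variances it was -1.09 (adjusted p = 0.0542), and in the fit that held the 3′/5′ ratio as a covariate -0.98 (adjusted p = 0.246). Without the replicate block Meis1 was -1.09 (adjusted p = 0.00416), 1 relative probe set passed as in the paired fit, and 816 of all probe sets passed, against 1116 paired; the block changed no call among the members. The number of relative probe sets called was 0 after quantile normalization, 0 without moderation and 0 with the covariate (limma, with 5, 3 and 0 at an unadjusted p under 0.05), 2 with trend and robust eBayes, where Pknox1 1421233_at passed too (adjusted p = 0.0423), and 0 to 3 with each pair left out. Of all probe sets, 2309 passed with trend and robust eBayes, 33 without moderation, 2040 of those with a mean log2 level of at least 5, 0 with the covariate (2504 at an unadjusted p under 0.05) and 359 to 1674 with each pair left out. The difference between Meis1 and the median relative was -1.09 to -0.97 with a pair left out. The 5 probe sets most like Meis1 on log2 levels and those within groups had 0 in common. Signs turned only for changes that did not pass. With the covariate these were Meis2 1447861_x_at (0.035), Pbx2 1418893_at (0.12), Pbx3 1447640_s_at (-0.20), Pbx3 1421193_a_at (0.23) and Pbx4 1449916_at (-0.018). Pbx3 1421193_a_at was at 0.035 after quantile normalization and Pbx3 1447640_s_at at -0.021 after median centring. With a pair left out Pbx2 1449261_at ranged from -0.15 to 0.024, Pbx3 1421193_a_at from -0.13 to 0.053, Pbx3 1447640_s_at from -0.045 to 0.092 and Pknox2 1428017_at from -0.00815 to 0.17. The covariate fit spends a degree of freedom on a ratio that differs between the groups, which by construction widens its errors. The ratio was higher with the shRNA in 5 of 5 pairs, so it cannot be fully told apart from the hairpin. Estimates moved too, for Pknox1 1437470_at from -0.41 to -0.02 and for 1450172_at from -0.63 to -0.23, while 1421233_at stayed at -0.64. The cause of these and the other shifts was not tested. Dim signal limits Meis2, Meis3, Pbx4 and Pknox2, where a fall could hardly show, and no detection calls were used.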
